A study of Homo sapiens with 6 samples.

Results

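The TALE homeobox genes, a class of transcription factor genes, were described in H9 cells after knockdown of a centromeric RNA. The 9 genes are MEIS1, MEIS2, MEIS3, PBX2, PBX3, PBX4, PKNOX1, PKNOX2 and TGIF1, out of 53719 rows of the count table. They were chosen by name as rows of the table, and the family was chosen with the measured rise of MEIS3 in the knockdown libraries in view. H9 is an established human embryonic stem cell line, and the cells were kept in RSeT, a medium sold for a naive-like state. Both groups were transfected and collected after 48 h. The knockdown group (library titles Sense3 a, b and c) received a gapmer that targets ALR, the alpha satellite RNA transcribed from the repeats of human centromeres. The control group (Control a, b and c) received a control gapmer, that is, an oligonucleotide of the same kind; gapmers act by letting RNase H cleave the RNA strand bound to them. Each group has 3 libraries of total RNA from this single line. The labels do not say whether the libraries came from separate cultures, so the p-values below measure only the spread between these libraries, which may be technical. Where a gene has 3 values per group, they are in the order a, b, c.

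Homeobox genes code for transcription factors that bind DNA through a homeodomain. In the TALE class the homeodomain carries an extra loop of 3 amino acids, a feature shared by the PBX, MEIS, PKNOX (PREP), TGIF and IRX families. PBX proteins pair on DNA with MEIS or PKNOX proteins and with HOX proteins. MEIS and PKNOX proteins also help to bring PBX into the nucleus. TGIF proteins repress transcription, in part by binding SMAD proteins of the TGF-beta pathway. In embryos, MEIS genes mark developing neural tissue, limbs and blood, and retinoic acid is a known inducer of MEIS genes.

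The MEIS paralogs share the homeodomain, and 2 members that rose have a processed copy elsewhere in the genome, so the sequences set how well reads can be told apart. The 90 coding bases in which MEIS3 is most like both MEIS1 and MEIS2 begin 1 codon before the loop codons and run into the DNA-recognition helix. They are given here from GENCODE 29 transcripts (GRCh38), 5′ to 3′, with capitals at bases that differ from MEIS3. MEIS3 lies on the minus strand within chr19:47403124-47419523, MEIS1 on the plus strand within chr2:66433452-66573869, MEIS2 on the minus strand within chr15:36889204-37101299 and the processed pseudogene MEIS3P1 on the plus strand within chr17:15786618-15787575.
MEIS3: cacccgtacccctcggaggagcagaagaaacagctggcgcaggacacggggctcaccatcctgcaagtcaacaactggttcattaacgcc
MEIS1: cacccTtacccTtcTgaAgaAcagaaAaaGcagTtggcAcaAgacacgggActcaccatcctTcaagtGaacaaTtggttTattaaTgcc
MEIS2: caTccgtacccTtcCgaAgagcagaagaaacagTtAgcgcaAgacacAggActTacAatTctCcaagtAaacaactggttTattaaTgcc
MEIS3P1: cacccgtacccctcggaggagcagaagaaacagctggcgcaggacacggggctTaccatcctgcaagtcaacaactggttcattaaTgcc
MEIS1 and MEIS2 each differed from MEIS3 at 16 of these bases, and MEIS3P1 differed at 2. Along 946 aligned bases MEIS3P1 was 96.7% identical to the MEIS3 coding sequence, and the longest stretch without a difference was 78 bases. MEIS1 and MEIS2 were 71.5% and 74.2% identical to MEIS3 where they aligned, with no identical stretch over 20 bases.

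PBX2 (minus strand, within chr6:32184741-32190186) has a closer copy, PBX2P1 (plus strand, within chr3:143176327-143177617). The 90 coding bases with the most differences between them are given with capitals where the copy differs.
PBX2: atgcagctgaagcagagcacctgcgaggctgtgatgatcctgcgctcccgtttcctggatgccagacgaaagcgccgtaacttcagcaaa
PBX2P1: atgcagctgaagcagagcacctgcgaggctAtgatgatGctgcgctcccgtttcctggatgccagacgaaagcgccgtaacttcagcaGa
Even in this stretch only 3 bases differed. Over 1289 aligned bases the identity was 98.6%, and the longest stretch without a difference was 174 bases. Reads that lie within such stretches cannot be assigned from their sequence. How the authors' counting treated reads with several alignments is not given in the sources used here.

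Total counts ran from 25087629 to 36576752 per library. Knockdown library a stood apart: it had counts in 29678 rows against 25898 to 26788 in the other 5 libraries, and it lay alone at one end of the first principal component (36.2% of the variance). The pluripotency gene NANOG was at 175 to 204 CPM (counts per 1000000 of the TMM-scaled library) in all libraries. POU5F1 was at 120, 152 and 127 CPM in knockdown and 114, 87.8 and 97.4 CPM in control libraries. The groups did not overlap for POU5F1, as for 18.9% of all genes tested, in either direction. The state of the cells was mixed by marker: the naive marker KLF17 had only 1 to 10 counts per library and DPPA5 23 to 38, TFCP2L1 was at 23.9 to 32.2 CPM, and SFRP2, listed as a primed marker, was at 71.9 to 84.4 CPM. The row of SOX2, a gene that embryonic stem cells express, is listed at 0 in every library, so a row at 0 in this table cannot be read as absence of the transcript.

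All 9 members had enough counts to be tested by edgeR's quasi-likelihood test across 19721 genes. In the knockdown libraries MEIS3 rose 1.71-fold and PBX2 rose 1.31-fold, and the remaining 7 members did not pass an adjusted p of 0.05. Members higher and lower by their estimates numbered 5 and 4, with a median log2 fold change of 0.30, beside 0.02 over all genes tested. The median is the value of PKNOX2 and rests on knockdown library a: without that library 6 members were higher and 3 lower, with a median of 0.03. The 2 members called compare with 0.786% of all genes tested. The groups did not overlap in 2 of 9 members, beside 18.9% of all genes. Because this contrast chose the family, nothing is read from those counts, and the fold changes below are descriptions. The members nearest the threshold were MEIS3 inside it (edgeR adjusted p = 0.0423) and PBX3 outside it (edgeR adjusted p = 0.237).

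**Figure D1:**
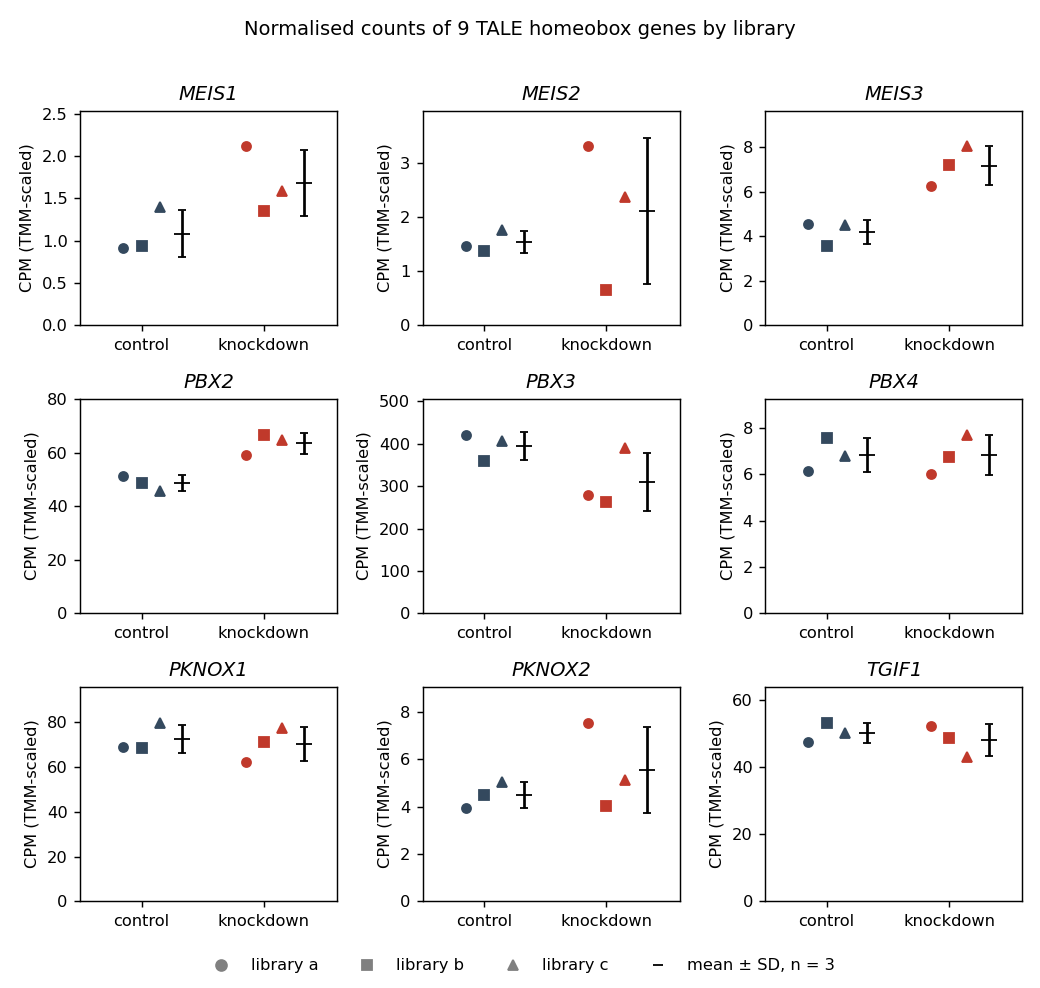
Normalised counts (CPM on TMM-scaled library sizes, each axis from 0) of the 9 members in the 3 control and 3 knockdown libraries, with the mean and SD of each group (n = 3). The knockdown libraries lie above all controls for MEIS3 and PBX2, whereas for MEIS1, MEIS2 and PKNOX2 knockdown library a is the highest point.

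The members differed in level by nearly 3 orders of magnitude. Levels of different genes are compared as CPM per kb of merged exons (GENCODE 29), a scale that allows for gene length. In control libraries PBX3 was highest at 87.3 ± 7.21 CPM per kb (SD, n = 3), 7.81 times PBX2 at 11.2 ± 0.677. PKNOX1 followed at 9.52 ± 0.830, TGIF1 at 6.11 ± 0.358 and PBX4 at 2.67 ± 0.284 CPM per kb. MEIS3 was at 0.818 ± 0.109 CPM per kb and PKNOX2 at 0.688 ± 0.0839, and the ranges of these neighbours overlapped. MEIS2 at 0.143 ± 0.0182 and MEIS1 at 0.0992 ± 0.0253 CPM per kb were lowest, with overlapping ranges. All other neighbours in this order had ranges that did not overlap. The order was the same in the knockdown libraries, where MEIS3 no longer overlapped PKNOX2 (lowest MEIS3 value 1.23, highest PKNOX2 value 1.15 CPM per kb). Merged exons count rarely used exons too, so a gene with many annotated exons can read low on this scale.

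**Figure D2:**
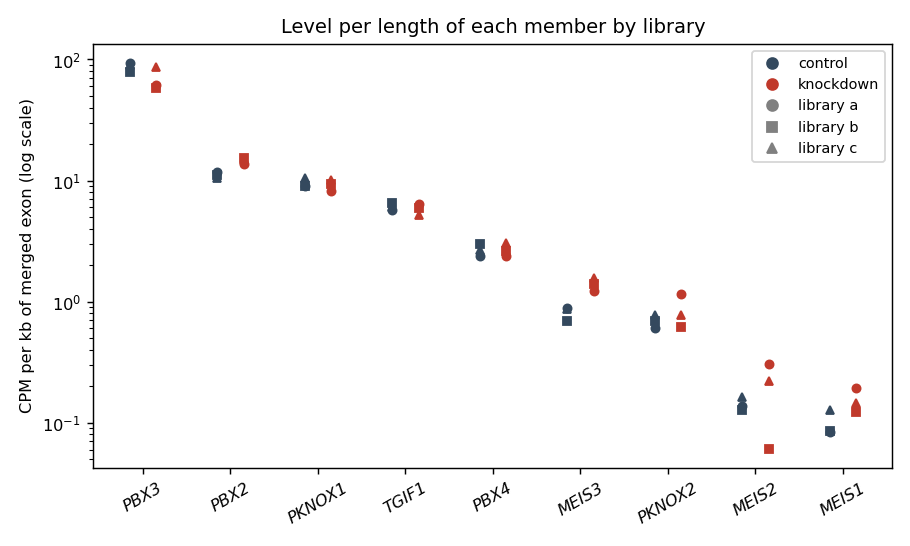
Level of each member as CPM per kb of merged exon (log axis) in each library, ordered by the control mean. The members run from PBX3, with a control mean of 87.3, down to MEIS1 at 0.0992, and knockdown library a is highest for PKNOX2, MEIS2 and MEIS1.

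By subfamily, the PBX members together gave 101 ± 7.10 CPM per kb in control libraries, the PKNOX members 10.2 ± 0.901, TGIF1 6.11 ± 0.358 and the MEIS members 1.06 ± 0.137 (SD, n = 3). The summed MEIS level was 1.73, 1.59 and 1.93 CPM per kb in knockdown libraries and 1.11, 0.905 and 1.17 in the controls. Every knockdown library was above every control, with means 1.65-fold apart. MEIS3 made up 71.0 to 88.4% of the sum in knockdown and 75.0 to 80.1% in control libraries. The sum therefore largely repeats MEIS3, whose rise chose the family, and the groups overlapped for both MEIS1 and MEIS2. The PBX sum was 77.4, 75.8 and 103.8 CPM per kb in knockdown libraries and 107.3, 93.4 and 102.7 in control libraries, so the groups overlapped through knockdown library c. PBX3 accounted for 62.0 to 70.5% of the level of all 9 members in knockdown and 71.7 to 75.2% in control libraries.

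MEIS3 (ENSG00000105419.17, a protein-coding gene that spans 16400 bases on chromosome 19) is the most abundant MEIS gene in these cells and codes for a partner of PBX proteins that acts in hindbrain patterning in vertebrate embryos. It had 178, 240 and 203 counts in knockdown libraries and 129, 110 and 163 in the controls. On the CPM scale this was 6.27, 7.19 and 8.03 against 4.54, 3.54 and 4.49. The groups did not overlap, and the lowest knockdown value was above the highest control value. The means were 7.17 ± 0.879 and 4.19 ± 0.560 CPM (SD, n = 3). The log2 fold change was 0.77 ± 0.15 (SE; edgeR adjusted p = 0.0423, from the contrast that chose the family) and 0.86 without knockdown library a (edgeR adjusted p = 0.0333). The call was lost when any 1 of 4 libraries was left out: knockdown b (log2 fold change 0.76; edgeR adjusted p = 0.136), control a (0.84; 0.151), control b (0.66; 0.219) or control c (0.83; 0.189). No other annotated gene overlaps MEIS3. In bulk RNA, more cells with the transcript and more transcript per cell cannot be told apart.

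The processed copy of MEIS3 did not set the groups apart. MEIS3P1 was at 3.24, 3.15 and 2.57 CPM in knockdown and 3.69, 2.61 and 3.14 in control libraries, so the groups overlapped (log2 fold change -0.07 ± 0.20; edgeR adjusted p = 0.907). With both rows added, so that a read placed in either is counted, knockdown libraries had 9.52, 10.3 and 10.6 CPM and the controls 8.23, 6.15 and 7.62. These sums also did not overlap, with means 1.38-fold apart. Within a library, the count of MEIS3 was 1.93, 2.29 and 3.12 times that of MEIS3P1 in knockdown libraries and 1.23, 1.36 and 1.43 times in the controls, a ratio that no scaling of libraries can change. Both the sum and the ratio hold the MEIS3 count, whose rise chose the family, so neither is separate support for that rise.

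MEIS1 (ENSG00000143995.19, chromosome 2, 140418 bases) and MEIS2 (ENSG00000134138.19, chromosome 15, 212096 bases) had few counts in these libraries. MEIS1 is best known from blood stem cells and leukaemia, and MEIS2 from limb, face and neural development. MEIS1 had 60, 45 and 40 counts in knockdown and 26, 29 and 51 in control libraries, or 2.12, 1.35 and 1.58 against 0.915, 0.934 and 1.40 CPM. Control library c lay above knockdown library b, so the groups overlapped. Its log2 fold change was 0.62 ± 0.30 (SE; edgeR adjusted p = 0.380), and 0.41 without knockdown library a.

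MEIS2 had 94, 22 and 60 counts in knockdown and 42, 43 and 64 in control libraries. Its CPM of 3.31, 0.659 and 2.37 in knockdown libraries took in both the highest and the lowest of all 6 values, around 1.48, 1.38 and 1.76 in the controls. The log2 fold change was 0.44 ± 0.43 (SE; edgeR adjusted p = 0.693) and turned to -0.078 without knockdown library a. The ratio of MEIS3 to MEIS1 counts was 2.97, 5.33 and 5.08 in knockdown and 4.96, 3.79 and 3.20 in control libraries. The groups overlapped, with a difference of 0.14 in mean log2 ratio. That difference was 0.41 without knockdown library a, 0.31 without control library a, 0.022 without knockdown library c, -0.014 without knockdown library b and -0.008 without control library c, so these libraries show no stable difference between MEIS3 and MEIS1. Antisense genes share 4.01% of the exon bases of MEIS1 (MEIS1-AS2) and 3.99% of those of MEIS2 (AC078909.1). The library kit keeps strand, but the labels do not say whether the counting used it.

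PBX genes supply the common partner of MEIS, PKNOX and many HOX proteins. PBX2 (ENSG00000204304.11, chromosome 6, 5446 bases) had 1680, 2229 and 1635 counts in knockdown libraries and 1462, 1512 and 1655 in control libraries. On the CPM scale this was 59.2, 66.8 and 64.7 against 51.4, 48.7 and 45.6, with no overlap between the groups. The means were 63.6 ± 3.91 and 48.6 ± 2.94 CPM (SD, n = 3). The log2 fold change was 0.39 ± 0.07 (SE; edgeR adjusted p = 0.0315) and 0.44 without knockdown library a (edgeR adjusted p = 0.0292). As with MEIS3, the call was lost without knockdown library b (0.35; edgeR adjusted p = 0.141) or control library a (0.44; 0.0999), b (0.39; 0.186) or c (0.34; 0.231). It was also lost with each library's trend on GC content removed (0.32; edgeR adjusted p = 0.0586). A noncoding gene on the same strand, AL662884.1, shares 654 of the exon bases of PBX2 (15.1%).

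The copy of PBX2 was higher in the same libraries. PBX2P1 had 46, 55 and 43 counts in knockdown and 26, 31 and 27 in control libraries, or 1.62, 1.65 and 1.70 against 0.915, 0.998 and 0.743 CPM, with no overlap. Its log2 fold change of 0.90 ± 0.28 did not pass (SE; edgeR adjusted p = 0.173). The sum of PBX2 and PBX2P1 was 60.8, 68.4 and 66.4 CPM in knockdown libraries and 52.3, 49.7 and 46.3 in the controls. PBX2 makes up nearly all of this sum, so it repeats the PBX2 row and cannot show how reads were placed.

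PBX3 (ENSG00000167081.16, chromosome 9, 220033 bases), the most abundant member, was lower in 2 of 3 knockdown libraries. It had 7889, 8741 and 9833 counts in knockdown libraries and 11987, 11140 and 14727 in the controls. The CPM were 278, 262 and 389 against 422, 359 and 405. Knockdown library c therefore lay within the control range, while libraries a and b lay below every control. The log2 fold change of -0.35 ± 0.13 did not pass (SE; edgeR adjusted p = 0.237). Without knockdown library c it was -0.57 ± 0.07 (SE; edgeR adjusted p = 0.00174), and the call also passed with no low-count filter (edgeR adjusted p = 0.000725). Those 2 settings called 1309 and 1064 genes in all, against 155 in the main run. With any other single library left out PBX3 did not pass (edgeR adjusted p = 0.394 to 0.596).

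The members differ widely in the length of DNA they span, and levels across libraries were set beside those of other genes of like span. As deviations of log2 CPM from the mean over 6 libraries, PBX3 was at -0.32, -0.40 and 0.17 in knockdown libraries and 0.28, 0.05 and 0.23 in the controls. The median deviation of the 1491 tested genes that span over 200 kb was -0.04, -0.23 and 0.05 in knockdown and 0.08, -0.01 and 0.08 in control libraries. The other members over 200 kb had another pattern. MEIS2 was at 0.99, -1.23 and 0.52 in knockdown and -0.14, -0.23 and 0.10 in control libraries, and PKNOX2 was at 0.62, -0.28 and 0.06 against -0.31, -0.12 and 0.04. Both were highest in knockdown library a, where PBX3 and the median of the long genes were below 0. Genes under 10 kb, the class of PBX2, had medians of 0.01, 0.12 and 0.002 in knockdown and 0.02, -0.04 and -0.07 in control libraries, and PBX2 itself was at 0.09, 0.27 and 0.22 against -0.11, -0.19 and -0.28. Each library's trend on gene span was also removed, which was tried only once the data were known. The log2 fold change was then -0.32 for PBX3 (edgeR adjusted p = 0.213), 0.32 for PBX2 (edgeR adjusted p = 0.0468) and 0.72 for MEIS3 (edgeR adjusted p = 0.0221).

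**Figure D3:**
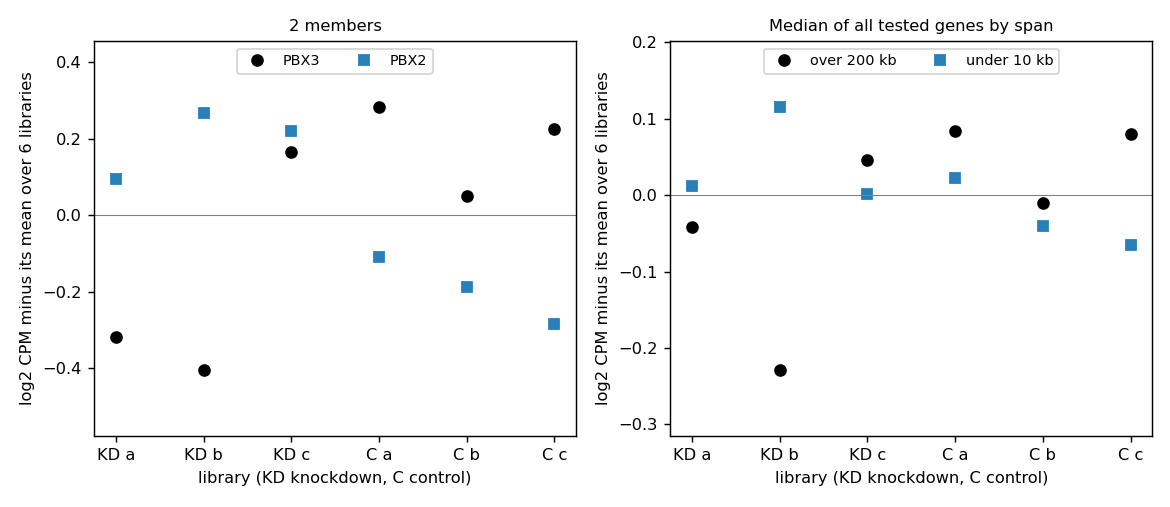
Deviation of log2 CPM from its mean over the 6 libraries, for PBX3 and PBX2 (left) and as the median of all tested genes that span over 200 kb or under 10 kb (right; the axes differ in range). PBX3 and the long genes are both lowest in knockdown library b, at -0.40 and -0.23, and both above 0 in knockdown library c. In knockdown library a they are at -0.32 and -0.04, and in control library b at 0.05 and -0.01.

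PBX4 (ENSG00000105717.13, chromosome 19) is the PBX gene that in adults is known mainly from testis. It was at 6.03, 6.74 and 7.72 CPM in knockdown libraries and 6.12, 7.57 and 6.80 in the controls (171 to 225 and 174 to 247 counts). The means were equal to 3 digits, at 6.83 CPM in each group, and the log2 fold change was -0.003 ± 0.14 (SE; edgeR adjusted p = 0.995). The ratio of PBX2 to PBX3 counts within a library was 0.213, 0.255 and 0.166 in knockdown libraries and 0.122, 0.136 and 0.112 in controls. These did not overlap, and the mean log2 ratio differed by 0.76, and by 0.61 to 0.92 when each library was left out. No scaling of libraries can change these ratios. By contrast, the ratio of PBX4 to PBX3 overlapped between groups. The part of gene span in this ratio, and in the level of PBX3, was not tested beyond the removal of the trend.

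**Figure D4:**
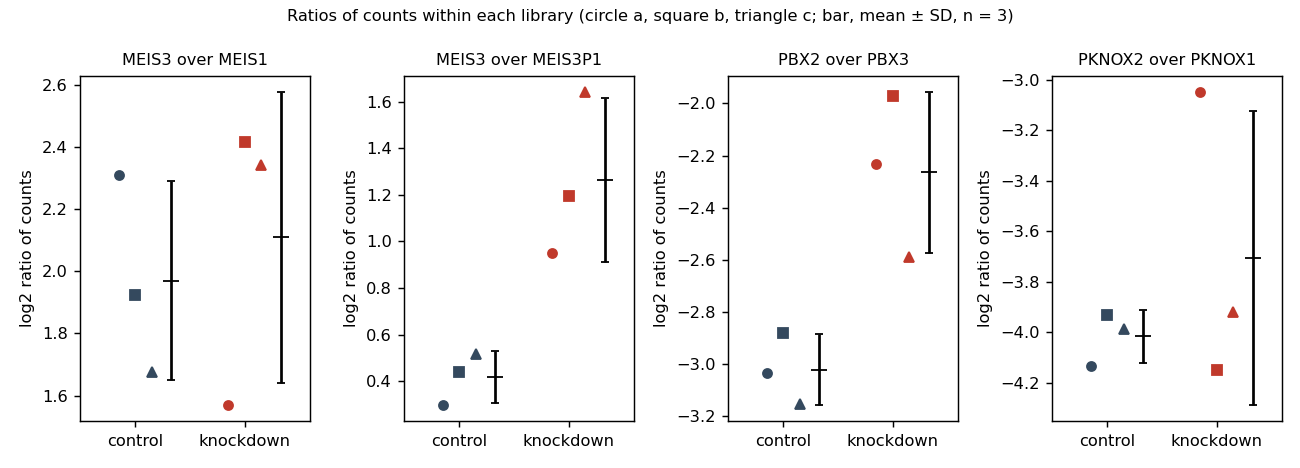
Log2 ratios of counts of gene pairs within each library (circles, squares and triangles are libraries a, b and c), with group means and SD (n = 3); the axes differ between panels and do not start at 0. The ratios of MEIS3 to MEIS3P1 and of PBX2 to PBX3 are higher in every knockdown library than in any control, and those of MEIS3 to MEIS1 and PKNOX2 to PKNOX1 overlap.

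PKNOX1 and PKNOX2 code for the PREP proteins, which take the place of MEIS in complexes with PBX. PKNOX1 (ENSG00000160199.14, chromosome 21) was at 62.3, 71.3 and 77.3 CPM in knockdown and 69.1, 68.7 and 79.8 in control libraries (1768 to 2900 counts over all 6). The groups overlapped, and the log2 fold change was -0.05 ± 0.09 (SE; edgeR adjusted p = 0.860). PKNOX2 (ENSG00000165495.15, chromosome 11) was at 7.54, 4.02 and 5.10 CPM in knockdown and 3.94, 4.51 and 5.04 in control libraries (214, 134 and 129 counts against 112, 140 and 183). Knockdown library a alone was high, and the log2 fold change was 0.30 ± 0.21 (SE; edgeR adjusted p = 0.562), and 0.006 without it.

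TGIF1 (ENSG00000177426.20, chromosome 18), a corepressor of SMAD-driven and retinoid-driven transcription whose mutations are linked to holoprosencephaly, was at 52.3, 48.6 and 43.0 CPM in knockdown and 47.3, 53.2 and 50.1 in control libraries (1087 to 1819 counts). The groups overlapped, and the log2 fold change was -0.06 ± 0.08 (SE; edgeR adjusted p = 0.767), between -0.13 and -0.01 when each library was left out.

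**Figure D5:**
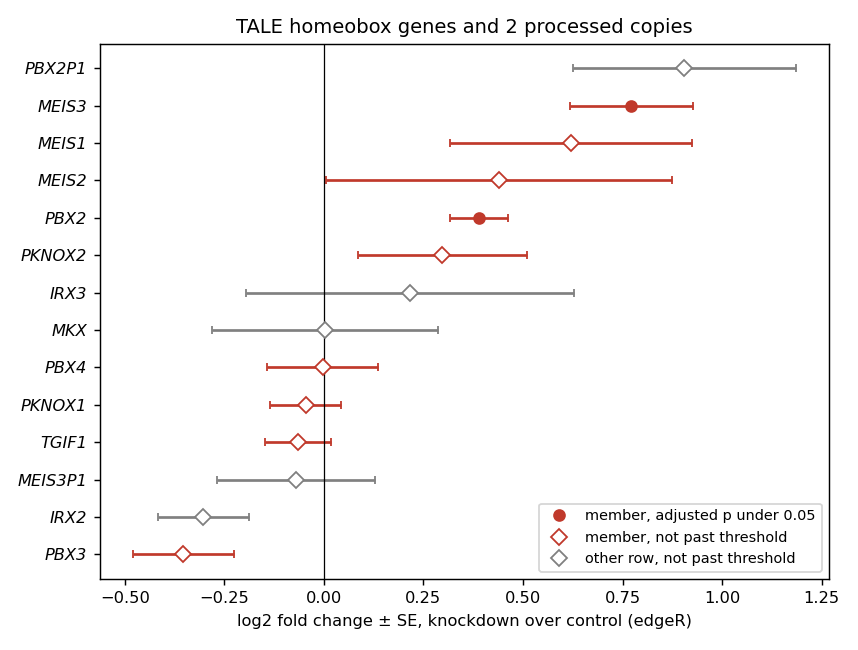
Log2 fold change of knockdown over control with its SE (edgeR, all 6 libraries) for the 9 members, the TALE genes IRX2, IRX3 and MKX, and the processed copies PBX2P1 and MEIS3P1. MEIS3 at 0.77 and PBX2 at 0.39 are the 2 rows past the adjusted threshold; PBX3 is lowest at -0.35.

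Among the other TALE genes described, IRX2, MKX and IRX3 had enough counts to be tested, and 0 of these 3 passed by edgeR, with 1 (IRX2) at an unadjusted p under 0.05, beside 14.3% of all genes tested. IRX2, a patterning gene of the Iroquois family, was at 10.5, 8.63 and 9.58 against 12.9, 11.8 and 10.8 CPM. Its groups did not overlap and its log2 fold change was -0.30 ± 0.11 (SE; edgeR adjusted p = 0.262). MKX and IRX3 had log2 fold changes of 0.002 ± 0.28 and 0.22 ± 0.41. IRX1, IRX4 and IRX5 had at most 14 counts in any library, and TGIF2, TGIF2LX and IRX6 are listed at 0 in all.

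The known partners of these factors were described through fixed lists, whose counts at an unadjusted p under 0.05 stand beside the same 14.3% of all genes. Of 39 HOX genes, 23 are listed at 0 in every library and 2 could be tested. The summed HOX level was 2.86 CPM in knockdown library a and 0.749 to 1.69 CPM in the other 5 libraries. HOXB1 had 13, 13 and 8 counts in knockdown and 19, 23 and 21 in control libraries (log2 fold change -0.76 ± 0.40; edgeR adjusted p = 0.414), and for HOXB2 the log2 fold change was -0.75 ± 0.54 (edgeR adjusted p = 0.560). Of 16 corepressors, coactivators and SMAD proteins that bind PBX, MEIS or TGIF, all were tested and 0 passed by edgeR, with 2 at an unadjusted p under 0.05 and a median log2 fold change of 0.02. HDAC1, a histone deacetylase (log2 fold change 0.14 ± 0.06; edgeR adjusted p = 0.325), and SIN3A, a corepressor scaffold (0.12 ± 0.06; edgeR adjusted p = 0.425), were among the 3 with the smallest p.

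Of 18 genes of retinoid signalling, the pathway known to induce MEIS genes, 15 were tested and 0 passed by edgeR, with 3 at an unadjusted p under 0.05 and a median log2 fold change of 0.18. CYP26A1, which degrades retinoic acid and is itself a retinoid target, was at 1.66 ± 0.363 CPM with knockdown and 2.53 ± 0.0923 with the control gapmer (SD, n = 3; log2 fold change -0.61 ± 0.23; edgeR adjusted p = 0.266). The receptor RARG had 3.04 ± 0.489 against 1.97 ± 0.591 CPM (0.63 ± 0.25; edgeR adjusted p = 0.281), and ALDH1A2, which makes retinoic acid, had 10.5, 5.63 and 7.83 against 6.12, 5.54 and 6.08 CPM (0.43 ± 0.19; edgeR adjusted p = 0.336). Without knockdown library a the log2 fold change of ALDH1A2 was 0.18. Over the 163 genes of all lists, cell type markers included, 90 were tested and 0 passed by edgeR, 17 had an unadjusted p under 0.05 (14.3% over all genes), and limma-voom called 0, where it called 0.882% of all genes tested. DESeq2 called 3, among them POU5F1 (log2 fold change 0.41) and FGF2 (-0.39), where it called 4.05% of the genes it gave an adjusted p.

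Markers of neural ectoderm, a tissue that expresses MEIS genes, were set beside the rise of MEIS3. Of the 10 markers, 7 were tested, of which 5 had positive estimates and 0 passed by edgeR, with 2 (SIX3 and NES) at an unadjusted p under 0.05. Without knockdown library a, 3 of the 7 had positive estimates. Their summed level was 359 to 406 CPM in knockdown and 307 to 360 in control libraries, and most of it was NES (369 ± 26.4 against 320 ± 28.4 CPM; SD, n = 3), which many cell types express. PAX6 had 47 to 96 counts per library and overlapped between groups, and SOX1 had 3 to 10. SIX3, a forebrain and eye gene with the smallest p of the list, had 14, 19 and 9 counts in knockdown and 6, 4 and 2 in control libraries (log2 fold change 1.87 ± 0.57; edgeR adjusted p = 0.164). LHX2, which acts in the same tissues, had 29, 23 and 21 against 19, 10 and 14 counts (0.89 ± 0.41; edgeR adjusted p = 0.352). These were the 2 of 7 tested markers without overlap between groups, beside 18.9% of all genes tested. SIX3 met the low-count filter only through its knockdown libraries, at 0.356 to 0.569 CPM against 0.0551 to 0.211 CPM in the controls. The filter thus favoured its positive estimate, its small p and its lack of overlap, and nothing is read from the counts that hold it. PAX6 and POU3F2, from the same list, had negative estimates (log2 fold change -0.08 and -0.24). The part of neural cells in the change of MEIS3 was not tested. In each of the endoderm, mesoderm and fibroblast lists, 4 of 5 tested markers had positive estimates. Without knockdown library a these numbers were 3, 3 and 4 of 5. With all libraries 0 passed by edgeR, and 0, 1 and 3 had an unadjusted p under 0.05, beside 14.3% of all genes tested. The 1 mesoderm gene was EOMES, with 15, 16 and 10 counts in knockdown and 4, 9 and 7 in control libraries. Like SIX3, it met the low-count filter only through its knockdown libraries, which favoured a positive estimate. The trophectoderm markers summed to 3.15 to 5.50 CPM in knockdown and 3.77 to 3.94 in control libraries, with 5.50 CPM in knockdown library a and at most 3.21 in b and c, and the fibroblast markers to 274 to 309 against 270 to 285.

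Among the 5 genes most like MEIS3 over the 6 libraries, out of 15116 tested genes with a mean count of at least 50, were FGFR3 (Pearson r = 0.997), TK1 (0.993), IL1RAP (0.987) and SLC16A3 (0.987). These are a fibroblast growth factor receptor, thymidine kinase, an interleukin receptor subunit and a lactate transporter. Since the groups differ in MEIS3, these correlations (n = 6) hold the difference between groups as well as the spread within them. With the group means removed, the closest were SLC39A4 (0.998), FBXL19-AS1 (0.997), SFMBT2 (0.996), USP31 (0.995) and SS18L1 (0.994). The lists share no gene, and with so few libraries values this high are a description only.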

How the data were processed

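RNA was sequenced from 3 ALR knockdown and 3 control libraries of H9 cells. The authors deposited raw read counts per gene symbol, 1 column per library. The submitters' processing notes list Trimmomatic 0.39, STAR 2.7.8a, featureCounts, Subread 2.14.2 and the build hg38. Annotation, strand setting and the treatment of reads with several alignments are not given in the sources used here.

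From the counts, edgeR 4.0.16 (R 4.3.3) was run on the 19721 genes kept by filterByExpr, with TMM scaling, the group as the only term, the quasi-likelihood test (two-sided) and Benjamini-Hochberg adjustment over all genes (threshold 0.05). SE is the log2 fold change over the square root of F. The procedure was tested on simulated data. Alternatives were other scalings, filters, tests (DESeq2 1.42.0, limma 3.58.1 with voom), a replicate block and each library left out. Removal of trends on gene span or GC content (natural splines, 5 degrees of freedom, over the 81.5% of tested genes with a GENCODE 29 match) was added after the data had been seen.

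All members are named. From each list, genes past the threshold are named, or otherwise up to 3 with the smallest p. The 5 genes closest to MEIS3 by Pearson r are named for each of 2 measures. Markers and the processed copies PBX2P1 and MEIS3P1 were named after their values were seen. Some genes that these rules name are not reported here. The members and lists were chosen with earlier results of these data known.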

Additional observations from a re-analysis of the deposited data

How the results depend on the processing

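The log2 fold change of MEIS3 was positive in all 16 alternatives (0.65 to 0.86) and passed the threshold in 11; PBX2 likewise (0.32 to 0.44; 11 of 16). MEIS3 narrowly missed it when only genes with a mean count of at least 50 were tested (0.77; edgeR adjusted p = 0.0506), and with 1 library left out it lay between 0.66 and 0.86. PBX3 was negative in all 16 (-0.57 to -0.25) and passed in 2. Of the other members, 0 passed in any alternative run. MEIS1 (0.41 to 0.86), PKNOX2 (0.006 to 0.48) and TGIF1 (-0.13 to -0.01) also kept their sign in every alternative that tested them. All runs draw on the same libraries, so a constant sign is not separate support. Signs changed for MEIS2 (-0.078 to 0.87 with a library left out), PKNOX1 (-0.14 to 0.032 with a library left out) and PBX4 (-0.12 to 0.075 with a library left out, 0.023 with library size alone and 0.013 with upper-quartile scaling). The cause was not tested.

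The number of genes called, 155 with all libraries, was 1064 with no low-count filter, 536 with DESeq2, 237 with the gene span trend removed, 238 with the GC trend removed, and 26 to 1309 with a library left out, the lowest without control library a and the highest without knockdown library c. Genes called in the fixed lists numbered 2 with no low-count filter, 3 with DESeq2 and 0 to 5 with a library left out (5 without knockdown library c). The letters a, b and c share no pairing in the labels. After subtraction of group means, same-letter libraries correlated at 1.23e-05 (a), 0.116 (b) and -0.0251 (c), and 2 of 6 libraries were closest to their own letter. With the replicate block 393 genes were called, 1 of them in the lists (FGF2), and MEIS3 (0.78) and PBX2 (0.39) passed. MEIS1 and MEIS2 had 22 to 94 counts per library, and the knockdown libraries of MEIS2 differed by up to 5.03-fold.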
